A study of Mus musculus with 72 samples.

Results

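Chrna4, Lrit1 and 1700001C19Rik are 3 of the 22823 genes in a table of liver read counts from mice fed an isocaloric control diet or a diet lacking methionine and choline (MCD). They were chosen by symbol because their liver levels were far lower on MCD at all 6 circadian times sampled, so that their liver difference between the diets is described here with no test. Of the 3, Chrna4 alone was also among the 15759 genes of the table for the suprachiasmatic nucleus (SCN), the brain's circadian pacemaker. Per the labels, C57BL/6 mice were singly housed with food always available in a 12:12 h light/dark cycle for 10 days and passed into constant darkness on the 11th day, when they were killed at circadian times CT0, CT4, CT8, CT12, CT16 or CT20. RNA came from a piece of the left liver lobe or from the SCN cut out of brain sections by laser. Each of the 12 combinations of diet and time held 3 libraries per tissue, 2 from males and 1 from a female, which gives 18 control and 18 MCD libraries in liver and as many in SCN. All groups share the strain, the housing and the day in darkness. The growth protocol in the labels speaks of male mice aged 8 to 12 weeks, whereas the sample labels and the design text name females, and the sample labels were followed. Nothing in the labels ties a liver library to the SCN library of the same mouse.

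Chrna4 encodes the alpha4 subunit of the nicotinic acetylcholine receptor, a cation channel opened by acetylcholine or nicotine. In the brain alpha4 is assembled chiefly with the beta2 subunit, the product of Chrnb2. Lrit1 encodes a membrane protein with leucine-rich repeats and immunoglobulin-like and fibronectin-type domains, known from photoreceptors of the retina. 1700001C19Rik is a protein-coding gene named after a RIKEN cDNA clone. Methionine and choline feed the synthesis of phosphatidylcholine, which the liver needs to export triglyceride in lipoproteins, and a diet without them is used in rodents to produce a fatty and inflamed liver.

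The 3 genes lie on different chromosomes. On build GRCm38 with the GENCODE M21 annotation, Chrna4 (ENSMUSG00000027577.15) spans chr2:181018380-181043546 on the minus strand with 5 transcripts, Lrit1 (ENSMUSG00000041044.10) chr14:37054830-37064946 on the plus strand with 1 transcript, and 1700001C19Rik (ENSMUSG00000047150.9) chr17:47412734-47437376 on the minus strand with 4 transcripts. The submitters' processing notes name GRCm39 for the reads, so these coordinates place the genes and were not used to count anything. Stretches before the RefSeq starts are shown because the 3 genes were chosen for the same fall on MCD. They hold up to 250 bases before a start, 5′ to 3′ on the gene's strand, with bases that M21 counts as exon left out and motif matches in capitals. They cover chr2:181039306-181039427 (minus strand) for Chrna4, chr14:37054580-37054829 (plus strand) for Lrit1, chr17:47437377-47437625 (minus strand) for the outermost start of 1700001C19Rik and chr17:47421881-47422130 (minus strand) for an inner start of that gene, all from RefSeq on GRCm38.p6.
Chrna4: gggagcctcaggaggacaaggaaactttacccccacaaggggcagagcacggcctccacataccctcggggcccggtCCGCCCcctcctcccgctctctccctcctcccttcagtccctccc
Lrit1: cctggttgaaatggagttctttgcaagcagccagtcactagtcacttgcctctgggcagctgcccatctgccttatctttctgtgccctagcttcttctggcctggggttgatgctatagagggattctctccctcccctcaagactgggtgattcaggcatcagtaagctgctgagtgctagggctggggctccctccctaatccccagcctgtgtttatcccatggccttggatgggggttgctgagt
1700001C19Rik, outer start: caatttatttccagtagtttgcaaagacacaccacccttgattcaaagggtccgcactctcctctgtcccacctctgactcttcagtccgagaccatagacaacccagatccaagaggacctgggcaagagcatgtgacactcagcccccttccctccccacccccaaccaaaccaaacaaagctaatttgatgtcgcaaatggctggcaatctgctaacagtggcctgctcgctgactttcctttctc
1700001C19Rik, inner start: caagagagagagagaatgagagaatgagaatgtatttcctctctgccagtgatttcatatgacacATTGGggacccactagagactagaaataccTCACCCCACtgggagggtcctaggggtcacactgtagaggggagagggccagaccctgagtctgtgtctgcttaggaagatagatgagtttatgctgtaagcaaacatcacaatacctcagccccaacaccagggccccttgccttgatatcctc

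The whole 250 bases were searched on both strands for a sterol regulatory element (TCACNCCAC), an NF-Y box (CCAAT), a GC box (GGGCGG), an E-box (CACGTG) and a D-box (TTANNTAA), as well as for 2 direct repeats bound by nuclear receptors. The window of Chrna4, 74.4% G or C, held 3 GC boxes, of which the stretch shown has 1. GC boxes occur in 32.7% of the 32851 mouse promoter windows of the same length. The inner window of 1700001C19Rik held a sterol regulatory element of the letters TCACCCCAC and an NF-Y box in the reverse orientation, which occur in 1.05% and 33.8% of all windows. No searched motif was found in the window of Lrit1 or in the outer or the innermost window of 1700001C19Rik. E-boxes occur in 6.02% of windows, D-boxes in 5.43% and the direct repeats in 0.0152% and 0.0335%. No measurement here shows which start of 1700001C19Rik was used.

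Liver libraries held 52.6 to 86.74 M gene counts (median 64.36 M) and SCN libraries 23.35 to 79.81 M (median 57.03 M), so each member rests on 10 counts or more in every library of its table. Albumin (Alb) averaged 73120 CPM in control liver and was at 5.756 CPM in control SCN, and the SCN peptide Vip averaged 1011 CPM in SCN and was not among the genes of the liver table. CPM here are counts per M counts of the library after TMM scaling, which corrects library totals for a few dominating genes. A single liver library stands apart from its label. In the library called control CT08 (a) here, 1 of 2 columns with the same name, 279 of the 341 genes that separate the other 17 control libraries from all MCD libraries were at the MCD level (81.8%). The other control libraries had 0% to 10.1% of their separating genes there. Those were only 62 to 69 genes, since control CT08 (a) was then among the controls to be separated, so the percentages cover unlike sets. Results that rest on control CT08 (a) are given with and without it. Liver libraries also fall into 2 kinds by the mitochondrial transcript mt-Nd6, at 41.6 to 119 CPM in 8 control and 13 MCD libraries and at 414 to 925 CPM in 10 control and 5 MCD libraries. The labels name no batch.

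Chrna4 was the member with the largest difference. In control liver it ranged from 3.134 CPM through a median of 37.25 to 99.29 CPM, with a mean of 43.57 ± 30.07 (SD, n = 18). On MCD it ranged from 0.1646 through 0.4355 to 1.907 CPM, with a mean of 0.6183 ± 0.4813 (n = 18). The lowest control library was thus 1.64 times the highest MCD library, and the groups did not overlap. That lowest library is control CT08 (a), without which the ratio was 2.84. At CT0 the control libraries were at 32.59, 5.413 and 66.89 CPM and the MCD libraries at 1.49, 0.2752 and 0.3317 CPM. At CT4 the control libraries were at 37.16, 69.63 and 83.55 CPM and the MCD libraries at 0.7137, 1.318 and 0.6841 CPM. At CT8 the control libraries were at 3.134, 23.91 and 37.33 CPM, the lowest being control CT08 (a), and the MCD libraries at 1.907, 0.2446 and 0.4663 CPM. At CT0 and CT8 control and MCD libraries came closest, through 1 low control library at each of these times and 1 high MCD library at each. At CT12 the control libraries were at 11.79, 6.129 and 15.48 CPM and the MCD libraries at 0.2331, 0.4047 and 0.5461 CPM. At CT16 they were at 84.11, 51.77 and 54.51 against 0.3504, 0.3118 and 0.6788 CPM, and at CT20 at 33.07, 68.58 and 99.29 against 0.3437, 0.1646 and 0.6646 CPM. The distance between the diets was widest at these 2 late times. The fitted log2 difference, MCD minus control averaged over the 6 times, was -5.90 ± 0.37 (SE), and the ratio of the 2 means was 70.5. By time it ran from -4.47 ± 0.86 at CT8 to -7.39 ± 0.98 at CT20. Without control CT08 (a) it was -5.02 ± 0.81 at CT8 and smallest in size at CT12 (-4.81 ± 0.81). Without control CT08 (a) the control mean was 45.95 ± 29.2 CPM (n = 17).

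Lrit1 was at 10.25 to 25.24 CPM in control liver (median 17.1, mean 17.01 ± 4.662, n = 18) and at 1.128 to 4.718 CPM on MCD (median 2.254, mean 2.536 ± 1.108, n = 18). The lowest control library was 2.17 times the highest MCD library. The time means of the 3 control libraries lay between 13.39 ± 5.08 CPM at CT16 and 19.64 ± 5.369 CPM at CT4, and all neighbours in their order overlapped. On MCD the 3 libraries at CT8 were at 4.288, 4.532 and 3.497 CPM, and those at CT16 at 1.895, 1.674 and 1.524 CPM. The CT8 values lay above every MCD library but the female at CT0, which had 4.718 CPM. The fitted log2 difference between the diets was -2.80 ± 0.16 (SE), with a ratio of means of 6.71, and by time it ran from -1.97 ± 0.37 at CT8 to -3.40 ± 0.39 at CT20. Control CT08 (a), at 13.48 CPM, lay within the range of the other control libraries for this gene.

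1700001C19Rik was at 5.499 to 16.5 CPM in control liver (median 10.73, mean 11.52 ± 2.819, n = 18) and at 1.088 to 2.841 CPM on MCD (median 1.933, mean 2.01 ± 0.5216, n = 18). The lowest value was again that of control CT08 (a), 1.94 times the highest MCD library, and the next control library, at 8.021 CPM, was 2.82 times it. The 3 control libraries were at 15.57, 13.41 and 14.45 CPM at CT4, the highest time mean (14.48 CPM, against 15.19 CPM at CT8 without control CT08 (a)), and at 9.924, 10.07 and 8.021 CPM at CT16, the lowest. On MCD the order was turned, with 1.209, 1.088 and 1.993 CPM at CT4 and 2.517, 2.675 and 2.189 CPM at CT16. The fitted log2 difference was -2.53 ± 0.12 (SE) and the ratio of means 5.73. By time it was widest at CT4 (-3.35 ± 0.30) and narrowest at CT16 (-1.92 ± 0.29). Without control CT08 (a) the control mean was 11.87 ± 2.458 CPM (n = 17).

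**Figure D1:**
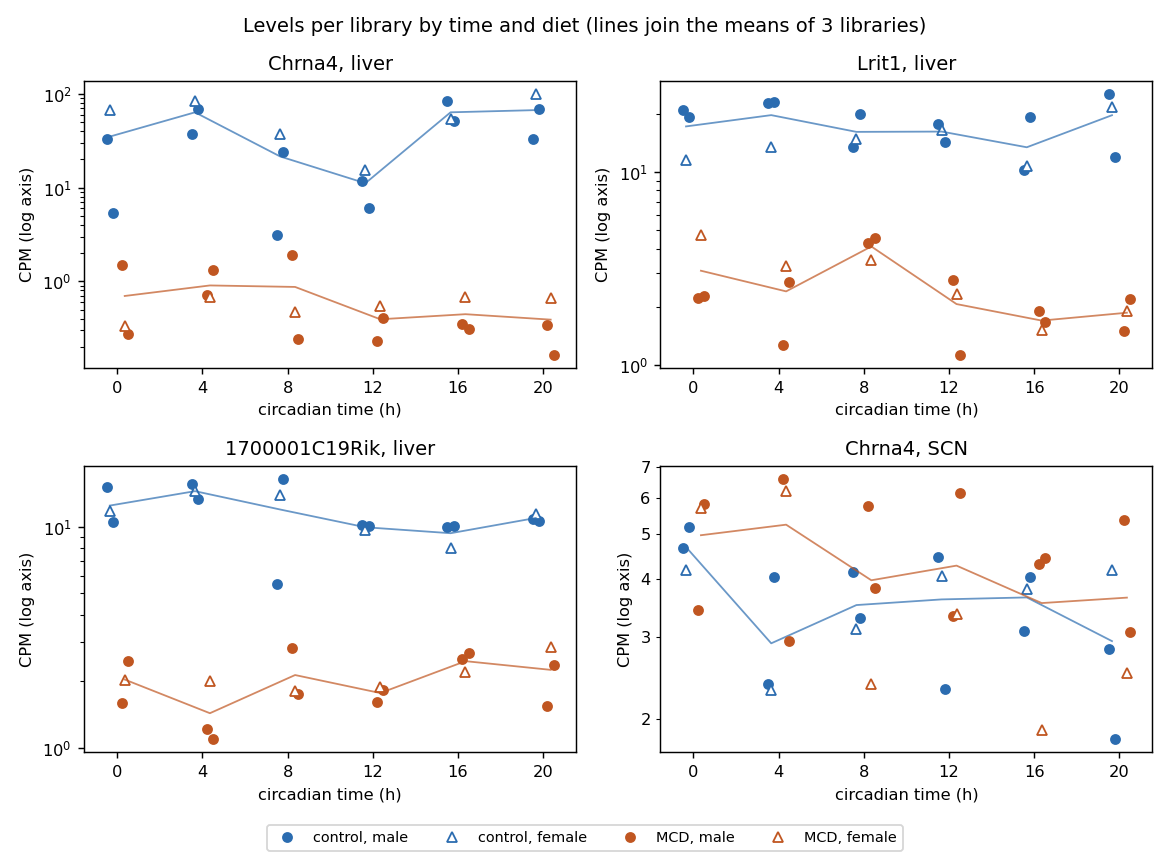
Level of each gene per library (CPM, log axis) against circadian time (h), with control libraries in blue, MCD libraries in orange, males as filled circles and females as open triangles; lines join the means of the 3 libraries at each time. In liver all 18 control libraries lie above all 18 MCD libraries for the 3 genes, while in SCN the Chrna4 values of the 2 diets (1.803 to 5.198 and 1.894 to 6.597 CPM) overlap.

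The size of the spread differed among the 3 genes. Chrna4 varied 31.7-fold across control libraries, with a coefficient of variation of 69%, and 18.3-fold (63.5%) without control CT08 (a). Lrit1 varied 2.46-fold (27.4%) and 1700001C19Rik 3-fold (24.5%), or 2.06-fold (20.7%) without that library. On MCD the coefficients of variation were 77.9%, 43.7% and 25.9%. Among the 13840 liver genes with a mean of at least 1 CPM over all 36 libraries the falls of Chrna4, Lrit1 and 1700001C19Rik ranked 10th, 43rd and 51st. Among all 20249 tested genes they ranked 15th, 145th and 172nd. Genes with no overlap between all 18 control and all 18 MCD libraries numbered 62 of 20249 tested (0.306%), 44 of them lower on MCD (0.217%), and the 3 members and Lrit2 were among the 44. The rule that chose the members used this contrast, so that nothing is read from their place in it. Since the diets did not overlap, any split of the libraries had to show the difference, and the means by kind of library are given as description. In the kind with low mt-Nd6, Chrna4 averaged 42.85 ± 35.96 CPM in 8 control and 0.6927 ± 0.5416 in 13 MCD libraries, and in the other kind 44.16 ± 26.48 in 10 control and 0.4247 ± 0.1998 in 5 MCD libraries. The corresponding means of Lrit1 were 16.42 and 2.595 CPM in the low kind and 17.48 and 2.382 CPM in the high kind, and those of 1700001C19Rik were 10.59 and 2.102 CPM and 12.26 and 1.772 CPM.

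In whole tissue, fewer cells of a type and less RNA per cell cannot be told apart, so marker genes are given beside these falls. Of the 10 hepatocyte markers, all tested, 6 fell on MCD and none rose, where edgeR called 46.6% of all liver genes, 21.2% lower and 25.3% higher. The median of the hepatocyte list was -0.28 on the log2 scale, against 0.02 over all genes. Their summed level was 83080 to 127800 CPM in control and 61010 to 130500 CPM in MCD libraries. Alb and Hnf4a, the hepatocyte transcription factor, did not pass the test, at log2 differences of 0.14 ± 0.08 and 0.08 ± 0.05. With library totals alone in place of TMM, 2 hepatocyte markers fell and 2 rose. All 8 macrophage markers rose (median 0.50), led by Trem2 at 2.39 ± 0.32 and Marco at 2.11 ± 0.33, and their summed level went from 276 to 680.7 CPM in control to 370.7 to 820.3 CPM in MCD libraries. Without all libraries of replicate 1, or of replicate 2, 4 of the 8 were called. Of the 5 erythrocyte markers 4 fell (median -0.80), of the 6 stellate cell markers tested 1 rose, Col3a1 (6 with library totals alone, and none without the second MCD male at CT12 or all libraries of replicate 1 or of replicate 2), and of the 8 lymphocyte markers 1 fell, Cd4, which was not called without all libraries of replicate 1 or of replicate 2. Of 9 neuron markers tested, 1 rose, Syp at 0.30 ± 0.13 (adjusted p = 0.048), a call lost in 4 of 8 other settings and in 29 of 39 fits that left out libraries. With library totals alone 3 neuron markers rose. The summed neuron markers were at 6.053 to 23.06 CPM in control and 7.975 to 26.95 CPM in MCD liver, and Snap25, a defining synaptic protein, was at 0 counts in 9 control and 11 MCD libraries, and its diet difference could not be estimated. Among photoreceptor markers in the liver table, Gnat1 fell by 0.90 on the log2 scale, while Sag was called higher, with 14 control and 8 MCD libraries at 0 counts, and was not called by DESeq2. It could not be tested without the MCD female at CT0, CT16 or CT20, the single MCD library above 0 at each of those times. Of the 4 oligodendrocyte markers tested, Cnp fell and Mbp rose, the latter a call lost with limma-voom, with a term for the kind of library and in 6 of 39 fits that left out libraries, and of 8 SCN neuron markers the single gene tested, Rgs16, did not pass, while 1 was called higher with the replicate block and with no filter on low counts. The part of cell composition in the 3 members' falls was not tested.

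Sex was compared within the control diet, a contrast that the choice of members did not use and in which 9.87% of liver genes were called. None of the 3 members was called by edgeR, while limma-voom called Chrna4 (1.14, adjusted p = 0.0403). Chrna4 averaged 35.61 ± 27.66 CPM in 12 control males and 59.51 ± 30.56 CPM in 6 control females, and the log2 difference, female minus male with time in the model, was 0.95 ± 0.42 (edgeR adjusted p = 0.175). At CT16 the female, at 54.51 CPM, lay between the males, and at the other 5 times the female was the highest of the 3. Lrit1 was at 18.14 ± 4.705 CPM in males and 14.74 ± 3.989 CPM in females (log2 difference -0.31 ± 0.21, adjusted p = 0.424), and 1700001C19Rik at 11.52 ± 3.09 and 11.51 ± 2.45 CPM (-0.01 ± 0.17, adjusted p = 0.983). The diet difference did not pass a test of a difference between the sexes in any member, a test that called 1.77% of liver genes. Its log2 estimates, female minus male, were -1.01 ± 0.72 for Chrna4, 0.59 ± 0.30 for Lrit1 and 0.17 ± 0.24 for 1700001C19Rik, with adjusted p-values of 0.637, 0.436 and 0.859.

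Rhythm was tested as the 24 h component of the 6 time means, which was called for 17.8% of liver genes on the control diet and 28.2% on MCD. No member passed on either diet. On the control diet Chrna4 had the largest fitted range from trough to peak, 1.88 on the log2 scale with a peak at CT21.8 (edgeR adjusted p = 0.0694). In order of time means the control libraries ran from CT20 at 66.98 ± 33.14 CPM over CT16 at 63.46 ± 17.93, CT4 at 63.45 ± 23.81, CT0 at 34.96 ± 30.81 and CT8 at 21.46 ± 17.23 to CT12 at 11.13 ± 4.71 CPM (n = 3 each). Neighbours in that order overlapped, while the 3 libraries at CT12 lay below all libraries at CT4, CT16 and CT20, and below those at CT8 too without control CT08 (a). The adjusted p was 0.0247 without the low control library at CT0, 0.047 without the high MCD library at CT8 and 0.015 with limma-voom. In the other direction the range was 1.59 (adjusted p = 0.122) without control CT08 (a), and on leaving out libraries the adjusted p reached 0.275. With a replicate block, a fit that also left out control CT08 (a) and (b), the range was 1.57. For 1700001C19Rik the fitted range on the control diet was 0.58 with a peak at CT3.2 (adjusted p = 0.157), and it passed without control CT08 (a), at 0.69 (adjusted p = 0.0221). Lrit1 had a range of 0.37 (adjusted p = 0.637). On MCD Lrit1 came closest to the threshold of 0.05, with a range of 0.96 and a peak at CT5.3 (edgeR adjusted p = 0.0508), and its adjusted p was 0.0176 with DESeq2 and 0.211 with limma-voom. Chrna4 and 1700001C19Rik had ranges of 1.47 and 0.51 on MCD, with adjusted p-values of 0.324 and 0.227.

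Within the 18 control liver libraries, each member was set against the others and against 3 genes of fatty acid and triglyceride metabolism. These were Srebf1, the sterol-responsive transcription factor that drives lipogenic genes, Fasn, fatty acid synthase, and Pnpla3, a lipid droplet protein induced on feeding. This family of 12 relations was tested on log2 CPM with two-sided permutation tests of 100000 resamples. Chrna4 rose with Pnpla3, with Pearson r = 0.844 and Spearman rho = 0.779 (n = 18, permutation p = 6e-05 and 0.00021, adjusted p = 0.00072 and 0.00252). The relation gave r = 0.712 without the 2 libraries farthest from the median (adjusted p = 0.0298), 0.78 without control CT08 (a), 0.874 after time and sex were fitted, 0.977 within the 8 libraries of the low mt-Nd6 kind and 0.664 within the 10 of the high kind, where the adjusted permutation p was 0.126. Chrna4 also rose with Fasn, at r = 0.678 and rho = 0.703 (n = 18, permutation p = 0.00225 and 0.00175, adjusted p = 0.0127 and 0.007). Without the 2 farthest libraries r was 0.431 and rho 0.588, and the call on r was lost (adjusted p = 0.284), so that this call rests on those libraries. It was 0.571 without control CT08 (a) (adjusted p = 0.0507), and 0.805 and 0.6 within the low and the high kind, with adjusted permutation p-values of 0.099 and 0.146. With Srebf1 itself Chrna4 gave r = 0.17 and rho = 0.226 (permutation p = 0.5 and 0.366).

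Lrit1 fell as Srebf1 rose. The pair gave r = -0.668 and rho = -0.699 (n = 18, permutation p = 0.00318 and 0.00171, adjusted p = 0.0127 and 0.007). Within the low and the high kind r was -0.671 and -0.668, with adjusted permutation p-values of 0.298 and 0.126. It was, without control CT08 (a) -0.738, and after time and sex were fitted -0.569. Without the 2 farthest libraries r was -0.547 and rho -0.588, with an adjusted permutation p of 0.161 for r, so the call rests on those libraries. Lrit1 against Fasn gave r = -0.462 (permutation p = 0.0559, adjusted p = 0.134), and r = -0.622 without control CT08 (a) (adjusted p = 0.0337). Against Pnpla3 Lrit1 gave r = -0.307 and rho = -0.422 (adjusted permutation p = 0.37 and 0.164), with r = -0.477 without control CT08 (a) (adjusted p = 0.107), 0.118 in the low kind and -0.666 in the high kind (adjusted p = 0.126). 1700001C19Rik passed with none of the 3 lipid genes, with r between -0.208 and 0.165. After time and sex were fitted its r with Pnpla3 was 0.575, and 0.443 when control CT08 (a) was also left out. The permutation p-values of these 2 fits (adjusted p = 0.0386 and 0.173) took no account of the fitted terms and are too small. The r of 1700001C19Rik with Fasn and with Pnpla3 was of the opposite sign, -0.408 and -0.302, without control CT08 (a). With Srebf1 it was then -0.497 (adjusted permutation p = 0.104).

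The 3 members did not pass with each other across control libraries. Chrna4 and Lrit1 gave r = -0.08 and rho = -0.152 (permutation p = 0.751 and 0.546), Lrit1 and 1700001C19Rik r = 0.433 and rho = 0.488 (adjusted p = 0.142 and 0.102), and Chrna4 and 1700001C19Rik r = 0.465 and rho = 0.24 (adjusted p = 0.134 and 0.488). The last value moved with 1 library and with the fit of time and sex together. It was 0.162 without control CT08 (a) and 0.755 once time and sex were fitted. With both changes, a setting chosen after the data were seen, it was 0.574. The permutation p-values after the fit (adjusted p = 0.00042 and 0.0684) took no account of the fitted terms and are too small.

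**Figure D2:**
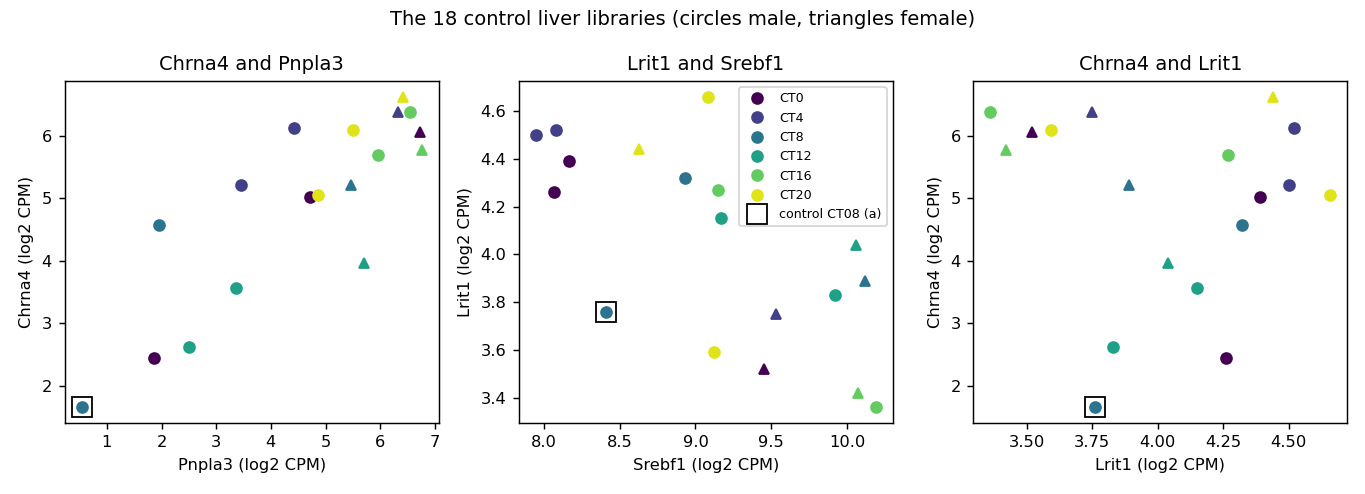
Log2 CPM in the 18 control liver libraries, with Chrna4 against Pnpla3 (left), Lrit1 against Srebf1 (middle) and Chrna4 against Lrit1 (right); colours give the circadian time, circles are males, triangles females, and the square marks control CT08 (a). Chrna4 rises with Pnpla3 (r = 0.844), Lrit1 falls with Srebf1 (r = -0.668), and Chrna4 shows no such order against Lrit1 (r = -0.08).

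Genes whose control levels ran most alike were taken from the 13690 tested genes with a mean of at least 1 CPM over the 18 control liver libraries. They were ranked by Pearson r over the same 18 libraries, as a description with no test. For Chrna4 they were Pstpip2 (r = 0.938), Lss (0.926) and Sc5d (0.92), both enzymes of cholesterol synthesis, Rnf103 (0.913) and Pnpla5 (0.896), a lipase of lipid droplets. All 5 fell on MCD, beside 21.2% of all liver genes called lower and 25.3% called higher. Pstpip2 fell from 25.96 to 11.17 CPM, Lss from 97.21 to 56.42, Sc5d from 706 to 317.8 and Rnf103 from 138.9 to 89.83. Pnpla5 fell from 5.584 ± 4.181 to 0.02778 ± 0.05247 CPM, with 13 of 18 MCD libraries at 0 counts. For Lrit1 they were Zfp871 (0.876), Klhl24 (0.868), Hbp1 (0.846), Crebrf (0.843) and Pcf11 (0.831), which on MCD differed by -0.19 to -0.37 on the log2 scale, Crebrf without passing the test. With library totals alone none of these 5 passed, and Hbp1 and Pcf11 were on the other side of zero, at 0.06 and 0.05. Zfp871, Klhl24 and Hbp1 also lost their calls without all libraries of replicate 1 or of replicate 2, and Klhl24 with the replicate block, while Crebrf was called without those of replicate 3. For 1700001C19Rik they were Nit2 (0.921), Lipc, hepatic lipase (0.909), Gm32511 (0.906), Cideb, a lipid droplet and lipoprotein assembly protein (0.869), and BC024386 (0.862). These 5 fell by 0.39 to 0.83 on the log2 scale, Gm32511 with a call lost with limma-voom, with library totals alone and without all libraries of replicate 1 or of replicate 3. Without control CT08 (a) only Gm32511 of these 5 stayed among the 5 most alike: Nit2 ranked 9th (0.855), Lipc 19th (0.841) and Cideb 149th (0.755), and BC024386 had r = 0.734. For Chrna4, Pnpla5 then ranked 10th (0.856), while the 5 genes of Lrit1 stayed. The 15 genes and their member share libraries and depth, and the differences on MCD come from the contrast that chose the members.

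Counts per exon bin, a stretch of exon that belongs to the same transcripts throughout, show which parts of each gene carry the reads. In control liver Chrna4 had 31204 bin counts over 17 bins and in control SCN 2151. The number of bins is the same as for the M21 transcripts, which was taken to number them. Bin 4, the 3′ exon of 2454 bases, took 41.3% ± 1.94 of the liver counts (SD, n = 18) and 65.8% ± 18.6 of the SCN counts. Bin 17, an exon upstream of the other starts at chr2:181043387-181043546 that belongs to 1 of the 5 transcripts, took 670 of the 31204 control liver counts, 2.14% ± 0.608 per library. In SCN it had 0 of 4781 counts over both diets, which allows a share of up to 0.0627% by counting error alone. The 3 adjoining bins 14 to 16 at the usual start held 52 of those 4781 SCN counts (1.09%), and 7.06% of all liver counts. SCN libraries therefore held fewer reads at the 5′ end of the gene in general, and the part of this in the empty bin was not tested. On MCD the liver had 545 Chrna4 counts, 7 of them in bin 17 (1.28%). Lrit1 kept its profile on MCD, with 78.4% ± 2.34 of its counts in the last exon on the control diet and 79% ± 10.2 on MCD. The 10 bins of 1700001C19Rik in the files did not correspond to the 11 of M21 and are not placed. In SCN the bin files held 0 Lrit1 counts in all 18 control libraries and 9 in 1 of the MCD libraries, and 35 counts of 1700001C19Rik over 5 control and 21 over 4 MCD libraries, the others being at 0.

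**Figure D3:**
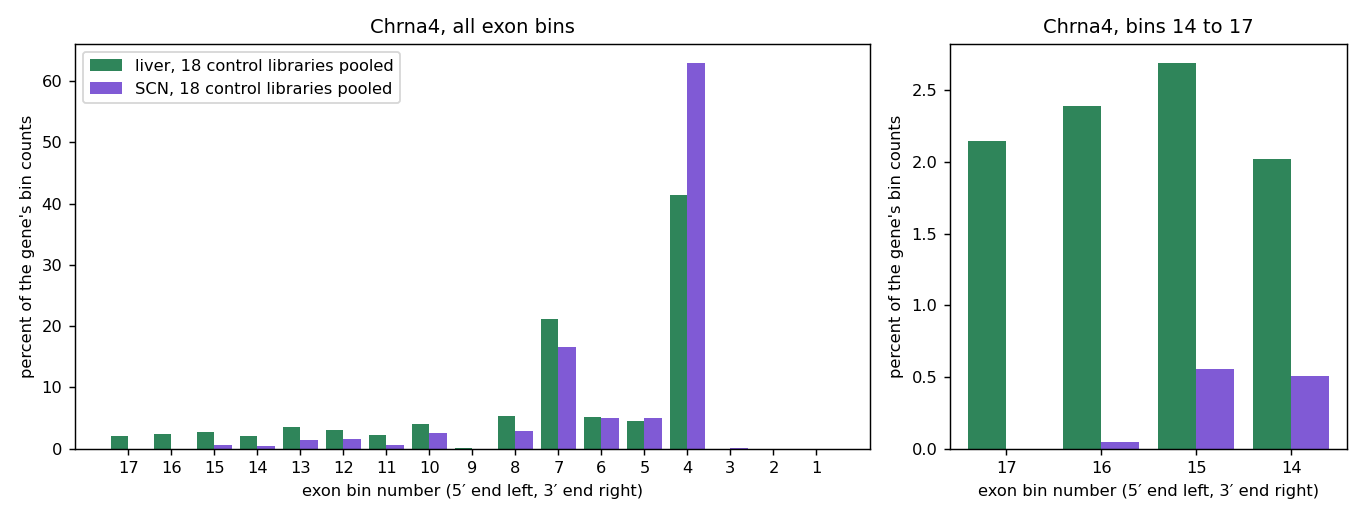
Share of the Chrna4 exon-bin counts (percent) in each bin, from the 5′ end (left) to the 3′ end (right), over the 18 control libraries of liver (green) and SCN (purple) pooled, for all bins and enlarged for bins 14 to 17. Bin 17 holds 2.15% of the liver counts and none of the SCN counts, and bin 4 holds 41.4% and 62.9%.

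The genes around each member were examined for the same difference, taking the 3 nearest on each side that the liver table lists. Of these 18 genes 16 were tested, of which 7 were lower and 2 higher on MCD, against 21.2% and 25.3% of all liver genes. Around Chrna4, 4 of 5 tested were lower. Col20a1, the adjoining collagen gene, fell from 2.73 ± 0.6326 to 0.9158 ± 0.6792 CPM (log2 -1.88 ± 0.23, edgeR adjusted p = 1.87e-07). It lies on the opposite strand at 0.0 kb from Chrna4, and whether reads of Chrna4 were counted in it was not tested. Ptk6, a Src-related tyrosine kinase 150.2 kb away, fell from 4.895 ± 2.743 to 0.4019 ± 0.3055 CPM (-3.62 ± 0.27, adjusted p = 1.34e-10). The genes between did not share that size: Ppdpf fell by 0.44 and Eef1a2 was at 0 in 16 control and 12 MCD libraries. Arfgap1, on the other side, rose by 0.21 ± 0.05, a call lost without all libraries of replicate 1.

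Lrit2, the other gene of the Lrit family in the table, starts 3 kb beyond the end of Lrit1. It fell from 4.25 ± 1.235 CPM (1.984 to 6.95) to 0.4744 ± 0.2875 CPM (0.1381 to 1.371), a log2 difference of -3.23 ± 0.20 (edgeR adjusted p = 3.77e-12), and its 18 control libraries lay above all 18 MCD libraries. On the other side of Lrit1, Rgr, a retinal opsin-like protein, fell by 4.22 ± 1.09 from a mean of 0.2435 CPM, with 8 control and 14 MCD libraries at 0, a call that was lost with limma-voom. Its diet difference could not be estimated with a term for the kind of library, nor without all libraries of replicate 1 or of replicate 3, the female control at CT12 or the first control male at CT16, where the libraries left were all at 0 counts at some time on each diet. Ghitm, 55.1 kb away at 232.6 ± 12.81 and 223.5 ± 16.4 CPM, did not pass (-0.06 ± 0.03), was called higher, at 0.20, with library totals alone and lower with DESeq2 (-0.07) and without all libraries of replicate 3 (-0.12), and Ccser2 rose by 0.50 ± 0.05. 1700001C19Rik overlaps AI661453 on the opposite strand. AI661453 was at 38.86 ± 11.37 CPM in control and 37.22 ± 7.233 CPM in MCD liver (-0.04 ± 0.08, adjusted p = 0.758), and was called higher, at 0.21 ± 0.08, with library totals alone. Among the other neighbours of 1700001C19Rik, Guca1b fell by 0.60 ± 0.20, a call lost with library totals alone and without all libraries of replicate 1 or of replicate 3, and Gm5814, Guca1a, Taf8 and Ccnd3 did not pass. With library totals alone Gm5814 (0.33), Taf8 (0.17) and Ccnd3 (0.28) were called higher. No source used here states whether counting used the strand, so reads shared by 1700001C19Rik and AI661453 cannot be told apart.

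**Figure D4:**
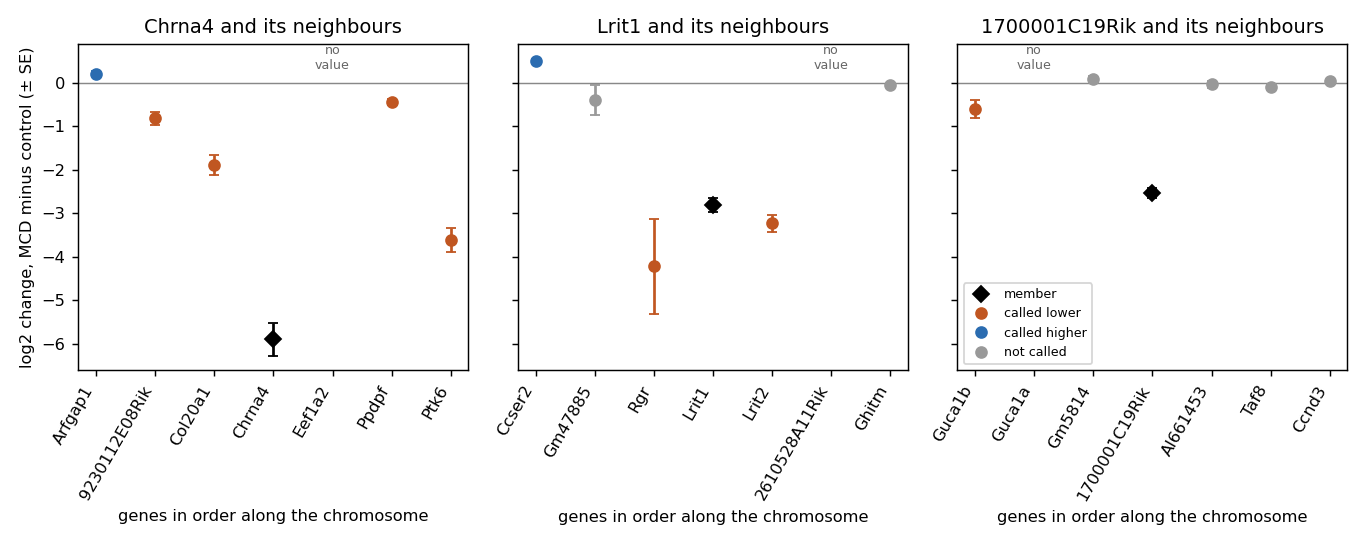
Fitted log2 difference in liver, MCD minus control (± SE), of each member (black diamonds) and of the 3 nearest listed genes on each side, in order along the chromosome; orange points were called lower, blue higher, grey not called, and genes with no fitted value are marked. Lrit2 lies at -3.23 beside Lrit1, Ptk6 at -3.62 near Chrna4, and AI661453, which overlaps 1700001C19Rik, at -0.04.

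Among the other genes of acetylcholine signalling there was no common direction, beside 21.2% of all liver genes called lower and 25.3% called higher. Of 15 other nicotinic receptor subunits 5 were in the liver table and 4 were tested. Chrnb2, the usual partner of alpha4, fell from 2.362 ± 1.023 to 1.729 ± 0.6923 CPM (-0.48 ± 0.16, adjusted p = 0.0142), a call that was lost with library totals alone and without all libraries of replicate 1. Chrne, the epsilon subunit of muscle, fell from 0.2838 ± 0.3213 to 0.007446 ± 0.02173 CPM, with 16 of 18 MCD libraries at 0 counts, and could not be tested without the female control at CT16 or at CT20 or without all libraries of replicate 3, where the control libraries left at those times were all at 0. Chrnb1, the beta1 subunit of muscle, rose by 0.79 ± 0.19 (adjusted p = 0.00131), a call lost without all libraries of replicate 1 (0.63, adjusted p = 0.057), and Chrna2 did not pass (0.09 ± 0.17). None of the 3 muscarinic receptor genes tested, Chrm1, Chrm2 and Chrm3, passed, all at means below 1 CPM, while Chrm1 was called higher (1.22, adjusted p = 0.0236) without all libraries of replicate 3. Of the genes that make, carry or break down acetylcholine, Ache, acetylcholinesterase, rose by 0.46 ± 0.18 (adjusted p = 0.0317), a call lost without any of 11 single libraries (0.38 to 0.44, adjusted p = 0.0504 to 0.0622) and without all libraries of replicate 1 (0.51, adjusted p = 0.136) or of replicate 3 (0.21, adjusted p = 0.345), and Bche, butyrylcholinesterase, did not pass (0.11 ± 0.09). Bche was called higher with library totals alone (0.36) and without all libraries of replicate 3 (0.30).

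The lipid genes were counted because relations with them were tested. Of 18 lipid synthesis genes 16 fell and none rose, beside 21.2% of all liver genes lower and 25.3% higher (median -1.49, against 0.02 over all liver genes), and 16 fell with library totals alone too. The largest falls were those of Pnpla5, of Pnpla3 (-5.53 ± 0.36, from 43.75 ± 37.14 to 0.705 ± 0.4827 CPM), of Scd1, stearoyl-CoA desaturase (-4.22 ± 0.27), of Acss2, which makes acetyl-CoA from acetate (-2.43 ± 0.22), of Thrsp (-2.18 ± 0.38) and of Elovl6, a fatty acid elongase (-2.11 ± 0.26). Srebf1 fell by 1.23 ± 0.17. Of 14 genes of cholesterol synthesis and uptake 7 fell and none rose (median -0.46), beside 21.2% of all liver genes lower and 25.3% higher, led by Insig1 at -0.96 ± 0.19 and Lss at -0.71 ± 0.18, whereas 4 fell and 1 rose with library totals alone, and 2 to 10 fell on leaving out libraries, where the call of Lss was lost without those of replicate 3. The LXR list holds the sterol receptors Nr1h3 and Nr1h2, which did not pass, and 8 genes they act on. Of these 10 genes 3 fell, Srebf1, Lpcat3 and Abca1, and 2 rose, Abcg1 and Mylip, shares near those of all liver genes (21.2% lower and 25.3% higher), whereas 1 fell and 6 rose with library totals alone, and 5 rose without the female control at CT20. The call of Mylip was lost without all libraries of replicate 1. All lists were chosen with earlier results of these libraries known.

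In SCN, whose libraries were not used to choose the members, Chrna4 was at 1.803 to 5.198 CPM on the control diet (median 3.928, mean 3.555 ± 0.9493, n = 18) and at 1.894 to 6.597 CPM on MCD (median 4.067, mean 4.281 ± 1.507, n = 18). The groups overlapped, with 7 of the 18 MCD libraries above the highest control library. The log2 difference was 0.26 ± 0.16 (edgeR adjusted p = 1), in a contrast that called 10 of 15759 SCN genes (0.0635%). At CT4, where the time means lay farthest apart, the control libraries were at 2.373, 4.044 and 2.307 CPM and the MCD libraries at 6.597, 2.94 and 6.202 CPM. No SCN sex difference or rhythm of Chrna4 was called on the control diet, with a log2 difference of 0.06 ± 0.24 (adjusted p = 0.94) and a range of 0.07 (adjusted p = 0.986), in tests that called 0.755% and 15.1% of SCN genes. Chrnb2 averaged 97.23 CPM in control and 93.3 CPM in MCD SCN, Chrna3 18.91 and 22.38 CPM and Chrna7 3.358 and 3.713 CPM, and none of the 3 was called. Whether the diet difference of Chrna4 differed between liver and SCN was not tested, since the liver difference chose the gene.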

How the data were processed

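Poly(A) RNA was sequenced from 36 liver and 36 SCN libraries. The authors deposited a gene count table per tissue and exon-bin counts per library, whole numbers per the file headers and values. The submitters' processing notes name Trimmomatic, HISAT2, StringTie, DESeq2 and GRCm39, with no versions or roles, and no source used here names the counting tool or says whether it used the strand. Both gene tables name 2 columns alike for control males at CT8, here called control CT08 (a) and (b). The smallest difference between replicates was 29.34 times sampling noise in liver and 24.12 in SCN (chi-square per degree of freedom), so all libraries were kept, and p-values measure the spread between them.

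For each tissue edgeR 4.0.16 (R 4.3.3; TMM, filterByExpr with a minimum count of 10, robust quasi-likelihood F test) was fitted on all 36 libraries, with 12 groups of diet and time plus sex, or sex within each diet. It tested 20249 liver and 15759 SCN genes, Benjamini-Hochberg adjusted over all of them, with 0.05 as threshold. For 400 of the liver genes and 9 of the SCN genes the mean diet difference could not be estimated, since nearly all of them were at 0 counts in every library of a time on each diet, and they count as not called. DESeq2 1.42.0 and limma 3.58.1 were alternatives, beside other scalings, filters, a replicate block and leaving out libraries. The fit with the replicate block also left out control CT08 (a) and (b), which have no replicate number, so its changes do not come from the block alone. The fitting was tested on simulated data. Relations used log2 CPM with a prior count of 2 and scipy 1.17.1, with exact permutations under 10 libraries. After a fit of time and sex the residuals were shuffled freely, with no allowance for the fitted terms. Of the 72 exon-bin files 2 end early, and both hold the members' bins.

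Named genes are the members, at most 6 called genes per list, the 3 nearest listed genes on each side and the 5 genes most alike per member, with markers by list. Snap25, Alb and Hnf4a are given as defining markers whatever their call. The members, lists and tests were chosen with earlier results of these data known. One photoreceptor marker is not reported here.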

Additional observations from a re-analysis of the deposited data

How the results depend on the processing

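The liver differences of Chrna4, Lrit1 and 1700001C19Rik kept their direction under all alternatives, from -6.29 to -5.62, from -3.02 to -2.55 and from -2.60 to -2.26 on the log2 scale. Library totals alone moved the median of all genes by 0.25 and the share of lower genes among those called from 45.6% to 12.7% (1540 genes lower against 4296), and leaving out libraries gave 6386 to 10049 genes called and 2963 to 4709 lower. Calls that were missed and then passed were the sex difference (1.14) and control rhythm (2.04) of Chrna4 with limma-voom, the control rhythm of 1700001C19Rik with library totals alone (0.67) and without control CT08 (a) (0.69), and the MCD rhythm of Lrit1 with DESeq2 and its size factors (0.98 each), library totals alone and a term for the kind of library (0.99 each) and without control CT08 (a) (0.98). Leaving out libraries gave 1.55 to 2.16 for the control rhythm of Chrna4, 0.50 to 0.70 for that of 1700001C19Rik, and 0.78 to 1.27 for the MCD rhythm of Lrit1, which passed in 11 of 39 fits. The sex difference of 1700001C19Rik was 0.06 with limma-voom and with library totals alone and -0.12 to 0.09 on leaving out libraries, and that of Chrna4 in SCN -0.11 to 0.16.

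Among relations, Chrna4 with Lrit1 was 0.02 after time and sex and 0.24 in the low kind (-0.21 to 0.02 on leaving out libraries), and Chrna4 with 1700001C19Rik 0.76 after time and sex. Chrna4 with Srebf1 was -0.17 without the 2 farthest libraries. Chrna4 with Fasn was 0.57 without control CT08 (a), 0.43 without the 2 farthest and after time and sex without that library (chosen after the data were seen), and 0.81 and 0.60 in the low and high kinds. Chrna4 with Pnpla3 was 0.66 in the high kind. Lrit1 with Srebf1 was -0.55 without the 2 farthest and -0.67 in each kind, Lrit1 with Fasn -0.62 without control CT08 (a) (-0.62 to -0.37 on leaving out libraries), and Lrit1 with Pnpla3 0.12 in the low kind. 1700001C19Rik with Srebf1 was 0.28 after time and sex, with Fasn -0.41 without control CT08 (a), -0.25 without the 2 farthest and -0.49 in the high kind (-0.41 to 0.22 on leaving out libraries), and with Pnpla3 0.57, -0.30, -0.13 and -0.50 in these 4 settings (-0.30 to 0.34). The cause was not tested.

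Of the 3228 values of the 79 other named genes, 3080 kept direction and call, 124 lost the call, 7 gained it and 17 changed sign. With library totals alone Ghitm was at 0.20, AI661453 0.21, Taf8 0.17, Chrm3 0.11, Hbp1 0.06 and Pcf11 0.05. Chrm3 was at 0.15 without control CT08 (a), and Ccnd3 at -0.00 with a term for the kind of library. On leaving out libraries AI661453 ranged from -0.16 to 0.04, Ccnd3 from -0.02 to 0.07, Bche from -0.01 to 0.30, Chrna2 from -0.31 to 0.33, Chrm1 from -0.73 to 1.22 and Chrm3 from -0.47 to 0.15. The replicate numbers do not pair the samples: same-numbered liver libraries deviated together with r of -0.215 to 0.291, over 0.1 in 5 of 16 pairs, and 7 of 16 correlated best with their own number. With the replicate block, which also left out control CT08 (a) and (b), the members differed by -6.02, -2.78 and -2.55, and Chrm3 was at 0.12. Leaving out the third replicate removes all females and gave no sex difference. The diet differences of Rgr, Chrne and Sag gave no value in a few of the fits, since the genes were then at 0 counts at whole times on both diets.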
